A study of Homo sapiens with 2 samples.

Results

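The 51 genes described act in the initiation and fork steps of DNA replication and were measured in A549 cells, an established line from a human lung adenocarcinoma, after stable retroviral transduction with ATOH8 or with the vector alone. The genes were taken by symbol from a named list that covers origin recognition, licensing, origin firing, the replicative polymerases, the clamp and its loaders, replication protein A, Okazaki fragment processing, fork protection and replication-coupled histone deposition. The MCM helicase genes were left outside the list. All 51 had a value in both libraries and a mean of at least 1 FPKM (fragments per kilobase of transcript, scaled to the sequenced fragments of the library), out of 12351 genes that met this minimum and 18812 with a value in both libraries.

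The study holds 1 RNA sequencing library of A549 cells carrying the empty retroviral vector and 1 of A549 cells carrying retroviral ATOH8, with total RNA as the starting material. ATOH8 is a transcription factor of the basic helix-loop-helix class, and both cultures were grown in the same serum-containing medium. With 1 library per group there was no replicate error and no test: every difference is between these 2 libraries, and a 2-fold rule of size stands in for a call. The labels name no clone, passage or time after transduction. ATOH8 itself was listed at 0.786 FPKM (vector) and 182 FPKM (ATOH8). The epithelial keratin genes KRT8 and KRT18 lay between 2012 and 2486 FPKM in the 2 libraries. The other epithelial markers were CDH1, at 15.4 and 54.1 FPKM (vector, then ATOH8), EPCAM, at 1.70 and 2.23 FPKM, and KRT19, at 0.219 and 0.0700 FPKM. The highest value in either library was 0.780 FPKM among 5 alveolar markers, 0.332 FPKM among 4 fibroblast markers and 0.0510 FPKM among 3 endothelial markers. Among leukocyte markers, CD3E was listed in neither library, PTPRC was listed in the ATOH8 library alone at 0.0111 FPKM, and CD68 was at 2.14 and 15.4 FPKM. Mitochondrial transcripts accounted for 14.4% (vector) and 24.2% (ATOH8) of all FPKM. MT-CO1 was left out of these shares because it had a value in the vector library alone. An alternative without mitochondrial transcripts is given in the closing section, and why their share differed was not tested. The files hold FPKM without read numbers, so the depth is unknown and no value carries a counting interval.

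Replication begins when the origin recognition complex, CDC6 and CDT1 load an inactive helicase onto origins in G1 phase. In S phase the DBF4-dependent kinase CDC7 and cyclin-dependent kinases recruit CDC45 and the GINS complex, and DNA polymerases alpha, epsilon and delta then copy the strands behind the opened helicase. The clamp PCNA, placed by the loader replication factor C, tethers the polymerases, while the fork protection proteins couple helicase and polymerase and pass on the checkpoint signal. Many of these genes are known targets of E2F factors and are transcribed most in cycling cells. In a bulk sample, fewer cells in S phase and less RNA of these genes per cell cannot be told apart.

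The replication genes were lower in the ATOH8 library across nearly every complex, and POLD4 was the 1 exception on the FPKM as deposited. Of the 51 genes, 50 had a lower FPKM in the ATOH8 library, against 64.7% of all 12351 genes. In 43 it was below 0.5 of the vector value, against 24.7% of all genes. The median of the 51 genes was 19.3 FPKM (vector) and 6.41 FPKM (ATOH8), and their summed FPKM was 1483 and 728. Log2 folds were taken as log2(ATOH8 FPKM + 1) minus log2(vector FPKM + 1), a scale that understates the change of low genes. On that scale 43 of 51 genes lay at -1 or below, the 2-fold limit, and 1 at 1 or above, against 19.0% and 6.24% of all 12351 genes. The median was -1.42 for the 51 genes and -0.30 over all genes.

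Because the median gene itself was lower in the ATOH8 library, folds were also expressed relative to it. The log2 fold of the median gene with a mean of at least 5 FPKM was -0.36, and subtracting it left 27 of the 51 genes (52.9%) at least 2-fold lower, against 9.47% of all genes. At least 2-fold higher was 1 gene, POLD4, against 12.8% of all genes. On this relative scale 48 of the 51 lay below 0, against 47.0% of all genes, and the median was -1.06 against 0.06 over all genes. The 3 above 0 were POLD4 (1.85), CDT1 (0.08) and POLD2 (0.07), of which CDT1 and POLD2 were below 0 on the FPKM as deposited (-0.28 and -0.29) and after the GC correction described further on (-0.56 and -0.45). Each log2 fold from here on is relative to the median gene unless another scale is named. An exact linear fold given for a single gene is the plain ratio of its 2 FPKM values. It has no pseudocount or centring and so differs from the log2 fold beside it.

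**Figure D1:**
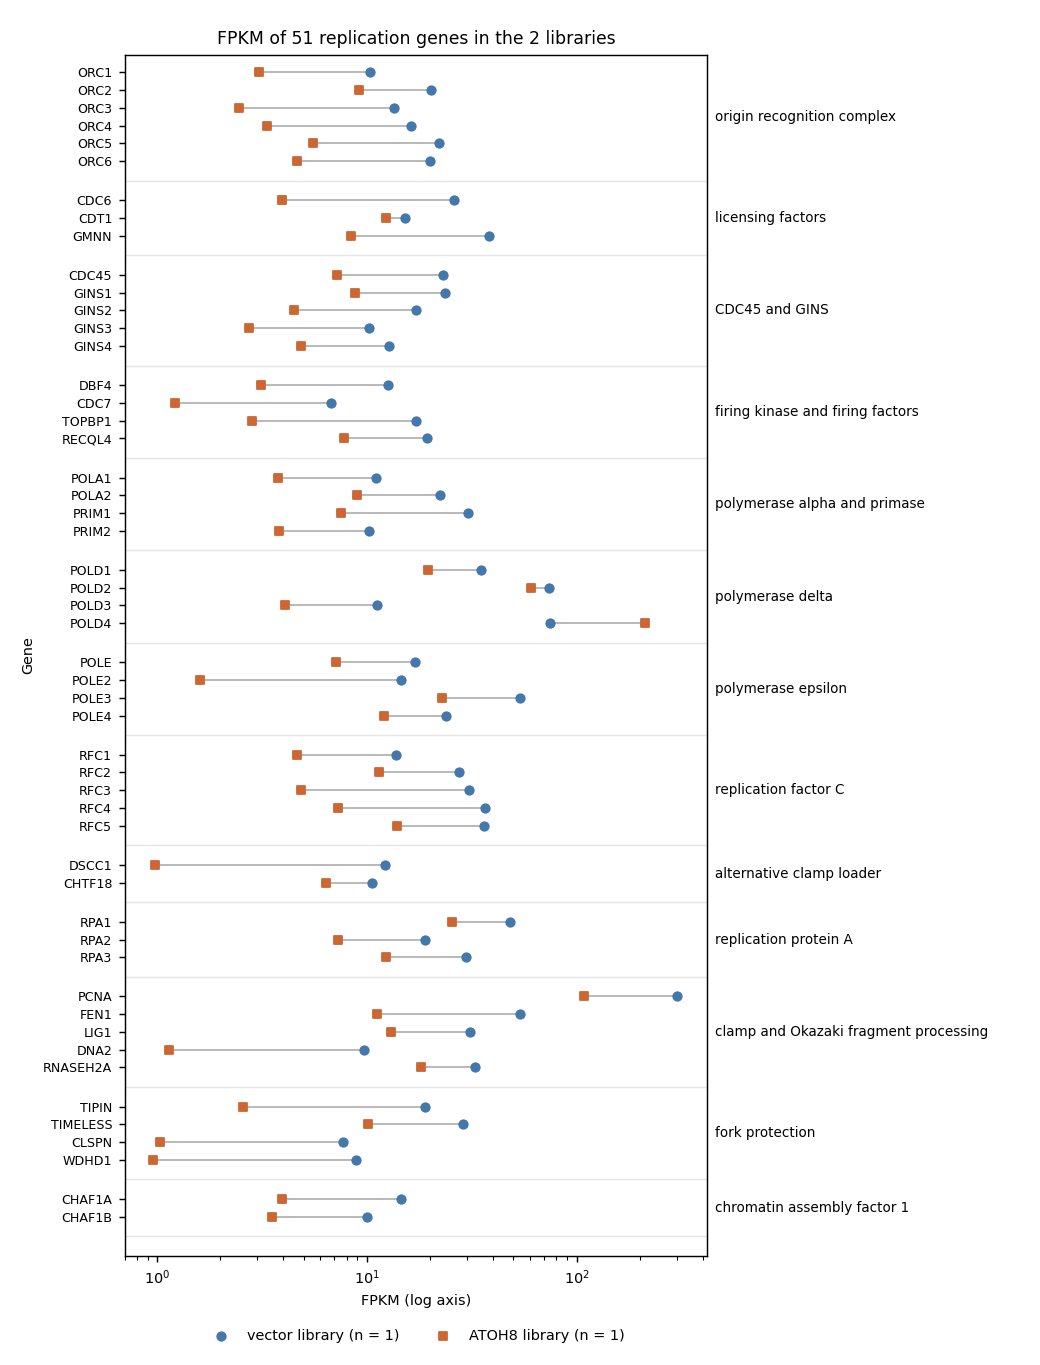
FPKM of the 51 replication genes on a log axis, grouped by complex or step, with a circle for the vector library and a square for the ATOH8 library (1 library each) joined by a line. The squares lie left of the circles for 50 genes, and POLD4, at 74.6 and 212 FPKM, is the gene whose square lies to the right.

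Regulatory sequence is shown for 5 members, picked after their values were seen: the gene that was higher and 4 that were lower. The lower ones are CLSPN, CDC7, CHAF1A and POLA1, whose 200 bases before the start hold no annotated exon in GENCODE 29. For POLD4 the stretch ends before the nearest annotated exon. Letters come from the RefSeq promoter windows on GRCh38.p14 and run 5′ to 3′ on the gene's own strand. Capitals mark CCAAT boxes and E2F-like letters on either strand. The E2F-like letters are TTCCCGC or TTGGCGC, or alternatively TTGCCGC or TTCGCGC, each also taken with a final G. Where matches overlap they form 1 run of capitals.
CLSPN, chr1:35769979-35770178, minus strand: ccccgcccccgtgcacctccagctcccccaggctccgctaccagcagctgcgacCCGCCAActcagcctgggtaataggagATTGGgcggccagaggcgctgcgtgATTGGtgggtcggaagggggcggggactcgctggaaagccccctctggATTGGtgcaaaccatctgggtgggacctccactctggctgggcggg
CDC7, chr1:91500651-91500850, plus strand: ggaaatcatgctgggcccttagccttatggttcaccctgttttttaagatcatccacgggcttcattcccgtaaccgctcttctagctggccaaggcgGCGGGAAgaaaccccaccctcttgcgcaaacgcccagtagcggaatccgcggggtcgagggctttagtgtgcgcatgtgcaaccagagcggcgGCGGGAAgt
CHAF1A, chr19:4402440-4402639, plus strand: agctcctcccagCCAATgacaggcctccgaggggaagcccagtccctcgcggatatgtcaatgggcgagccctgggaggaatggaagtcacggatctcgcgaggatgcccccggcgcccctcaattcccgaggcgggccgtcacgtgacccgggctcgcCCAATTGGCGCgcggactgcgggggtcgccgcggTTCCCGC
POLA1, chrX:24693718-24693917, plus strand: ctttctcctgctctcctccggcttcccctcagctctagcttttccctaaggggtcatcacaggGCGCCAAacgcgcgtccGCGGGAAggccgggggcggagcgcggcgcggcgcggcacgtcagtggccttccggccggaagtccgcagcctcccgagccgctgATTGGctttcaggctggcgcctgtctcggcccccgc
POLD4, chr11:67353664-67353796, minus strand: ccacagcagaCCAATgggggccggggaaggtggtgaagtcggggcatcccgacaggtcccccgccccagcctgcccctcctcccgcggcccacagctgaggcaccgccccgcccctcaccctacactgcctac
In these stretches CLSPN holds 1 E2F-like match and CDC7, CHAF1A and POLA1 hold 2 each, while the 133 bases of POLD4 hold 0. The choice of genes sets this contrast, because an E2F-like match in the window was itself a ground for showing a gene. Of the 4 lower genes shown, POLA1 was within 2-fold of the median gene (-0.98). ORC4, ORC5, ORC6, DBF4 and FEN1 were at least 2-fold lower and have no E2F-like match in their windows, and the POLD4 stretch is shorter. The POLD4 stretch lies inside the annotated gene, between exons of its longer transcripts. The CLSPN match is a form with a final G, and those forms were added after the windows had been seen. With the C-ended forms alone the CLSPN stretch holds 0, as the POLD4 stretch does, though the full CLSPN window holds a match.

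Promoter windows of 300 bases, most of them upstream of a start, were found by symbol for 44 of the 51 genes. E2F-like letters occurred in a window of 35 of the 44 genes (79.5%), of 44.5% of 9005 expressed genes with a window, and in 23.7% of all 35116 windows. The forms with a final G were added after the windows had been seen, and with the C-ended forms alone the counts were 31 of 44 genes (70.5%), 25.9% of expressed genes and 12.97% of all windows. CCAAT boxes occurred in 25 of the 44, in 43.6% of expressed genes and in 34.6% of all windows. The letters TTTGAA or TTCGAA, the form of the cell cycle homology region found at many mitotic genes, occurred in 2 of the 44 (DBF4 and POLE3) against 15.3% of expressed genes and 16.4% of all windows. By fold, 20 of 35 genes with an E2F-like match and 5 of 9 without were at least 2-fold lower, with medians of -1.10 and -1.36. With the C-ended forms alone the order of the 2 medians was the other way round, -1.12 with a match and -0.87 without. A match describes the letters and is not evidence that a factor binds there.

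Genes of the origin recognition complex, which marks origins and takes part in loading the helicase, all had less RNA with ATOH8. Their median log2 fold was -1.50, and 5 of 6 were at least 2-fold lower. ORC3 stood furthest, at 13.5 FPKM (vector) and 2.45 FPKM (ATOH8) (-1.71). ORC4 followed with 16.2 and 3.33 FPKM (-1.63). ORC6, a small subunit, was at 19.95 and 4.64 FPKM (-1.54), and ORC5, an ATPase-fold subunit, at 22.1 and 5.54 FPKM (-1.46). ORC1, the ATPase subunit whose protein is degraded after G1 phase, was at 10.3 and 3.05 FPKM (-1.12). ORC2 changed least, from 20.3 to 9.12 FPKM (-0.71), and so passed from the second to the highest level of the 6. The ORC2 transcript is AT-rich, and after the GC correction its value was -0.20. The order of the other subunits changed as well. ORC6 was then furthest at -1.60, followed by ORC1 (-1.34), ORC3 (-1.15), ORC5 (-1.02) and ORC4 (-0.99), which came to lie within 2-fold.

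Among the licensing factors CDC6 and GMNN were far lower while CDT1 was nearly level. CDC6, the loader ATPase (chromosome 17, 40287633 to 40304657, plus strand), was at 26.1 FPKM (vector) and 3.94 FPKM (ATOH8), 6.63-fold lower, with a log2 fold of -2.10. GMNN, which encodes geminin, the inhibitor of CDT1, was at 38.4 and 8.41 FPKM (-1.71). CDT1 (chromosome 16, 88803213 to 88809258, plus strand) was at 15.2 and 12.4 FPKM (0.08). The balance between these genes therefore differed between the libraries: CDT1 transcripts stood at 0.396 of the GMNN level in the vector library and at 1.47 times that level in the ATOH8 library. CDC6 stood at 1.72 times CDT1 in the vector and at 0.318 of it in the ATOH8 library. Ratios of this kind are taken within a library, so a common scaling of all genes does not enter them, but base composition can. After GC correction the difference between the log2 folds of CDT1 and GMNN was 0.92 in place of 1.79, and that between CDC6 and CDT1 was 1.47 in place of 2.18.

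Origin firing genes were all lower in the ATOH8 library. CDC45 and the 4 GINS genes, whose products bind the MCM ring to form the active helicase, had log2 folds between -1.37 and -0.87 with a median of -1.19. CDC45 was at 23.1 and 7.22 FPKM (-1.19). GINS2 was lowest in fold, at 17.2 and 4.47 FPKM (-1.37), followed by GINS3 at 10.2 and 2.72 FPKM (-1.23). GINS1, at 23.7 and 8.78 FPKM (-0.98), and GINS4, at 12.7 and 4.85 FPKM (-0.87), were within 2-fold of the median gene. No pair ratio among these 5 genes changed by 2-fold, and the largest change was 0.55 on the log2 scale. GC correction widened the range of their log2 folds from 0.51 to 0.95, the difference between GINS1 and GINS2. With the correction 0 of 10 pairs reached 2-fold. In the kinase pair, CDC7 was at 6.72 and 1.22 FPKM (-1.44) and its activator DBF4 at 12.6 and 3.11 FPKM (-1.36). TOPBP1, the scaffold that brings GINS to origins and activates the ATR checkpoint kinase, was at 17.2 and 2.82 FPKM (-1.90). RECQL4, a helicase-family factor whose N terminus resembles a yeast firing factor, was at 19.3 and 7.77 FPKM (-0.85). In this group 2 of 6 pair ratios changed by at least 2-fold, those of TOPBP1 and CDC7 to RECQL4. Taken as differences between log2 folds with the pseudocount, 1 of 6 pairs reached 2-fold without GC correction and 0 with it. The difference between TOPBP1 and RECQL4 was 1.04 without the correction and 0.09 with it. For CDC7 and RECQL4 it was 0.59 and 0.64, so that pair fell within 2-fold through the pseudocount.

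The 3 replicative polymerases did not move alike, and within each of polymerases delta and epsilon 1 accessory subunit stood apart. In polymerase alpha and primase, which lay down the RNA-DNA primers, 4 of 4 genes were lower with a median of -0.92. The catalytic gene POLA1 was at 11.02 and 3.75 FPKM (-0.98) and the regulatory gene POLA2 at 22.2 and 9.01 FPKM (-0.86). PRIM1, the primase catalytic subunit, was at 30.5 and 7.56 FPKM (-1.52), and PRIM2, its partner, at 10.2 and 3.81 FPKM (-0.87). Only PRIM1 of these 4 was at least 2-fold lower, and no pair ratio among them changed by 2-fold. After GC correction POLA2 (-1.22) and PRIM1 (-1.06) were both at least 2-fold lower. On the FPKM as deposited 4 of 4 genes were.

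In polymerase epsilon, the leading-strand enzyme, POLE2 was far lower than its partners. POLE2 (chromosome 14, 49643555 to 49688422, minus strand), the second subunit and a contact of GINS, was at 14.5 FPKM (vector) and 1.59 FPKM (ATOH8), 9.10-fold lower, with a log2 fold of -2.22. The catalytic gene POLE was at 17.0 and 7.13 FPKM (-0.79). POLE3 and POLE4, whose products form a histone-fold pair that also binds histones, were at 53.7 and 22.8 FPKM (-0.84) and at 23.8 and 12.1 FPKM (-0.57). POLE2 went from 0.853 to 0.224 of the POLE level, and the difference between their log2 folds, 1.43, was 0.82 after GC correction, while POLE3 kept 49.3% and 52.3% of the summed FPKM of the 4 genes.

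Polymerase delta, the lagging-strand enzyme, was the group closest to the median gene and held the only gene that was at least 2-fold higher. POLD4 (ENSG00000175482, chromosome 11, 67350777 to 67356972, minus strand, protein-coding), the smallest subunit, was at 74.6 FPKM (vector) and 212 FPKM (ATOH8), 2.84-fold higher, with a log2 fold of 1.85 and a GC-corrected value of 1.34. The catalytic gene POLD1 was at 35.0 and 19.6 FPKM (-0.45), POLD2 at 74.0 and 60.4 FPKM (0.07), and POLD3, which also serves in translesion and break-induced synthesis, at 11.2 and 4.05 FPKM (-0.91). POLD4 thus made up 38.3% of the summed FPKM of the 4 genes in the vector and 71.6% in the ATOH8 library, and its ratio to POLD1 went from 2.13 to 10.8. The POLD4 protein is known to be degraded after DNA damage and in S phase; protein was not measured here.

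Reads at POLD4 could have been shared with a neighbour. Its exons overlap those of AP003419.11, a protein-coding entry on the same strand, over 21.3% of the annotated exon bases, and that entry was at 1.01 and 6.16 FPKM. The file's locus string at POLD4 also spans PPP1CA, RAD9A and CLCF1, which were lower in the ATOH8 library, at 110 and 72.0, 15.95 and 12.8, and 11.9 and 7.23 FPKM. TBC1D10C and CARNS1, in the same string, were higher in the ATOH8 library, at 0.0774 and 0.605 FPKM and at 0.0252 and 0.162 FPKM. The part of shared reads in the POLD4 value was not tested.

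**Figure D2:**
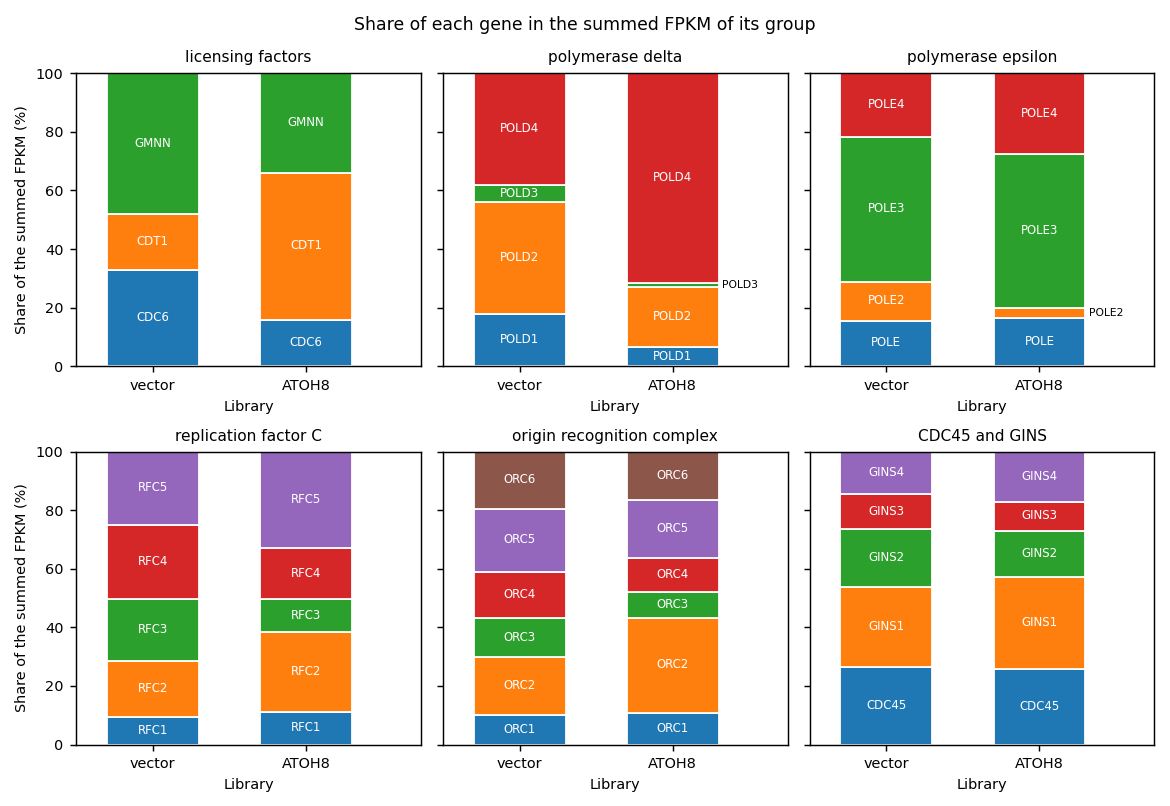
Share of each gene in the summed FPKM of its group, in percent, for 6 groups, with 1 bar for the vector and 1 for the ATOH8 library. POLD4 takes 38.3% and 71.6% of the polymerase delta bar, CDT1 19.1% and 50.1% of the licensing bar and POLE2 13.3% and 3.66% of the polymerase epsilon bar, while the CDC45 and GINS bars are nearly alike.

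Replication factor C had a median of -1.03 with 5 of 5 genes below 0. RFC3 was at 30.7 and 4.83 FPKM (-2.08) and RFC4 at 36.6 and 7.25 FPKM (-1.83). The large subunit gene RFC1 was at 13.8 and 4.63 FPKM (-1.03), RFC5 at 36.1 and 13.9 FPKM (-0.96) and RFC2 at 27.4 and 11.5 FPKM (-0.83). RFC3 and RFC2 had nearly equal levels in the vector library (ratio 0.894), whereas RFC2 was 2.37 times RFC3 in the ATOH8 library. RFC3 is the more AT-rich of the pair, and GC correction reduced the difference between their log2 folds from 1.25 to 0.34. The alternative loader, which acts in sister chromatid cohesion, had the largest pair change outside polymerase delta, 2.94 on the log2 scale. DSCC1 was at 12.3 FPKM (vector) and 0.972 FPKM (ATOH8), 12.6-fold lower, with the lowest log2 fold of all 51 genes (-2.39). Its partner CHTF18 was at 10.6 and 6.41 FPKM (-0.28). The difference between their log2 folds, 2.11, was 1.04 after GC correction.

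PCNA and the enzymes that join Okazaki fragments were lower to different degrees. PCNA, the sliding clamp and the most abundant member in the vector library, was at 300.6 and 108.6 FPKM (-1.10). DNA2, a nuclease-helicase for long flaps, was at 9.65 and 1.14 FPKM (-1.96), and the flap endonuclease gene FEN1 at 54.0 and 11.2 FPKM (-1.81). LIG1, the ligase that seals the nicks, was at 30.9 and 13.1 FPKM (-0.82), and RNASEH2A, the catalytic subunit of the enzyme that removes ribonucleotides, at 32.6 and 18.1 FPKM (-0.46). On this scale PCNA, FEN1 and DNA2 passed the 2-fold limit, while LIG1 and RNASEH2A did not. After GC correction LIG1 also passed it, at -1.26, close to DNA2 at -1.31, and RNASEH2A did not (-0.71). The difference between the log2 folds of LIG1 and DNA2 was 1.13 without the correction and 0.05 with it. On the FPKM as deposited LIG1 was at -1.18. FEN1 stood at 1.66 times RNASEH2A in the vector library and at 0.619 of it in the ATOH8 library.

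Replication protein A, the single-strand binding trimer, was among the least changed groups, with 0 of 3 genes at least 2-fold lower and a median of -0.84. RPA1 was at 48.2 and 25.6 FPKM (-0.53), RPA2 at 18.96 and 7.28 FPKM (-0.91) and RPA3 at 29.7 and 12.4 FPKM (-0.84). The order of the 3 levels was the same in both libraries.

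The fork protection genes had a median of -1.86, and 4 of 4 were at least 2-fold lower. This was the lowest median of the 13 groups on the relative scale, but not under every alternative: with a pseudocount of 5 FPKM it was -0.91 against -1.41 for licensing, with members of shared loci left out -1.40 against -1.71, with a minimum mean of 5 FPKM -1.59 against -1.71, and after GC correction the 2 groups were level at -1.49. TIPIN, the partner of TIMELESS, was at 18.9 FPKM (vector) and 2.56 FPKM (ATOH8) (-2.12). WDHD1, which links polymerase alpha to the helicase, was at 8.89 and 0.952 FPKM (-1.98), and CLSPN, the claspin mediator of the checkpoint, at 7.69 and 1.03 FPKM (-1.74). TIMELESS was at 28.7 and 10.1 FPKM (-1.06). The TIPIN to TIMELESS ratio went from 0.657 to 0.254, but the difference between their log2 folds, 1.06, was 0.37 after GC correction. TIPIN shares 21.0% of its annotated exon bases with a ribosomal protein pseudogene, RPL9P25. CHAF1A and CHAF1B, of the histone chaperone that follows PCNA, were at 14.5 and 3.94 FPKM (-1.29) and at 10.0 and 3.54 FPKM (-0.92).

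**Figure D3:**
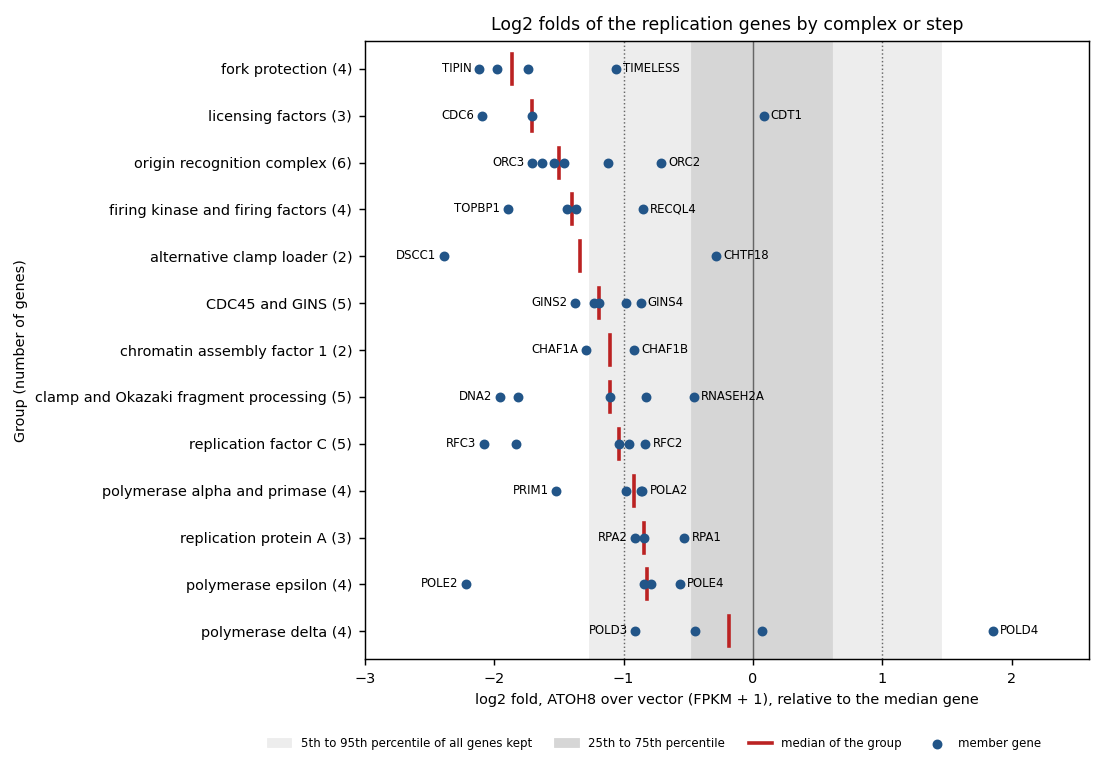
Log2 fold of each replication gene relative to the median gene (dots), by group in order of the group median (red bars), with the lowest and highest gene of each group named. Grey bands give the 25th to 75th and 5th to 95th percentiles of all 12351 genes (-1.26 and 1.45 for the outer band), dotted lines mark 2-fold, and the medians run from -1.86 for fork protection to -0.19 for polymerase delta.

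Across the 13 groups, 9 had a median at or past the 2-fold limit, and 13 had a median below 0. On the FPKM as deposited 12 groups reached a 2-fold lower median, polymerase delta being the exception at -0.55. Of 83 within-group pairs, 26 had a ratio that changed by at least 2-fold between the libraries, and 23 of 80 did so without POLD4. The share of gene pairs in general that changed this much was not counted, so these counts do not set the groups apart. Part of the differences within groups moved with base composition. Taken as differences between log2 folds with the pseudocount, 17 pairs reached 2-fold without GC correction and 12 with it, of which 8 were the same pairs. The members with the lowest folds were DSCC1 (-2.39), POLE2 (-2.22), TIPIN (-2.12), CDC6 (-2.10) and RFC3 (-2.08). Values are less certain where reads can be shared: DBF4, FEN1, PCNA, POLD2, RFC3, RFC5 and RPA2 have named pseudogenes, and GINS4, POLA2, PRIM1, POLD4, RNASEH2A and TIPIN share over 20% of their exon bases with another annotated gene. The groups hold 2 to 6 genes, and the spread within them was not compared with that of other gene groups.

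Base composition moved with the folds. Across the 51 genes the Spearman correlation between the log2 fold as deposited and the GC content of the longest transcript was 0.64, and the Pearson correlation was 0.62. Over 12319 genes they were 0.55 and 0.51, and in both cases genes share the same 2 libraries and are not replicates. The median GC content was 45.5% for the replication genes and 48.5% over all genes. The part of base composition in each fold was not tested, and 2 measurements bear on it. With the trend removed by a lowess curve, 31 of 51 genes passed the 2-fold limit downward and 1 upward, against 5.94% lower and 8.33% higher among all genes, and 50 of 51 were below 0, against 50.0%.

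The second measurement split the members into 3 equal sets by GC content. In the AT-richest set (37.6% to 43.0% GC), 13 of 17 members and 21.8% of 2662 other genes were at least 2-fold lower. In the middle set the numbers were 9 of 17 members and 6.65% of 3053 other genes, and in the GC-richest set (49.7% to 65.5% GC) 5 of 17 and 1.49% of 5353. GC correction also changed which genes stood out. CDC7, DBF4, ORC4 and RFC1, all AT-rich, came to lie within 2-fold, while POLD1, POLE, POLA2, LIG1, RFC2, RPA2, CHAF1B and RECQL4 came to be at least 2-fold lower. FEN1 then had the lowest value (-2.15), followed by CDC6 (-2.03) and POLE2 (-2.01).

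**Figure D4:**
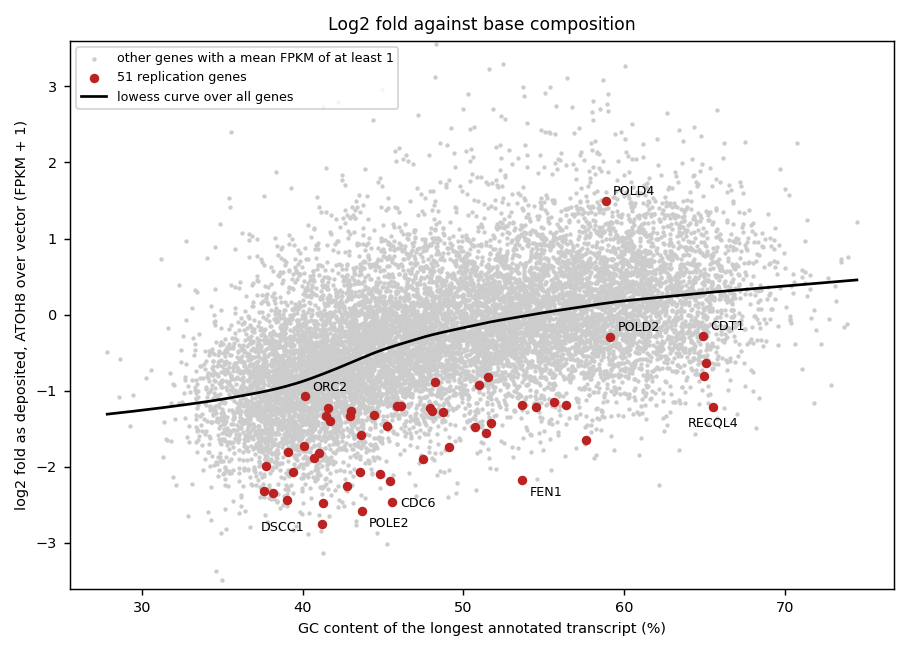
Log2 fold as deposited against the GC content of the longest annotated transcript, with the 51 replication genes in red, other genes in grey and the lowess curve in black (7 genes lie outside the vertical axis). After the trend is removed 50 of the 51 replication genes have a value below 0, and POLD4 is the exception.

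The authors' deposited table marked 33 of the 51 genes down and 1, POLD4, up, against 14.7% of all genes marked down and 5.17% marked up. In the authors' deposited table, the q-value was 1.13e-07 for POLE2, 2.74e-07 for ORC3, 7.48e-05 for DSCC1 and 0.00140 for POLD4. These q-values set 1 library against the other and rest on the same FPKM, so they are no independent check. Of the 17 members not in that table, 10 were below 0.5 of the vector FPKM, ORC2, GINS1 and RPA2 among them, against 12.4% of all genes not in it.

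Other genes of the pathway were counted from 3 lists that hold no member. Of 18 helicase and further initiation genes, 11 passed the 2-fold limit downward and 0 upward (median -1.31), against 9.47% and 12.8% of all genes. The 3 furthest were MCM10, a helicase-activating factor (14.7 and 1.32 FPKM, -2.40), the helicase subunit gene MCM6 (46.5 and 9.87 FPKM, -1.77) and DTL, the ubiquitin ligase adaptor that removes CDT1 (18.6 and 3.72 FPKM, -1.70). Of 20 further fork and chromatin genes, 9 passed it downward and 0 upward (median -0.85), against the same shares of all genes. EXO1, an exonuclease, was at 19.4 and 2.70 FPKM (-2.10), TOP2A, a topoisomerase, at 109 and 25.8 FPKM (-1.68), and SUPT16H, of the FACT histone chaperone, at 82.5 and 23.3 FPKM (-1.42).

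Among DNA polymerases with other roles, some genes were lower and some higher in the ATOH8 library. Of 13 such genes, 12 had a mean of at least 1 FPKM, of which 1 passed the limit downward and 2 upward (median -0.32). Over all genes 9.47% passed it downward and 12.8% upward. The counts were close to these shares and do not set these polymerases apart. POLQ, the polymerase of end joining by microhomology, was at 4.34 and 0.477 FPKM (-1.50). POLL, a gap-filling polymerase of end joining, was at 6.70 and 13.8 FPKM (1.31), and POLH, the translesion polymerase that copies past ultraviolet damage, at 3.40 and 7.11 FPKM (1.24). After GC correction POLL was within 2-fold (0.89). On the FPKM as deposited POLL and POLH were within 2-fold (0.95 and 0.88). On that scale 3 of the 12 passed the limit downward and 0 upward, against 19.0% and 6.24% of all genes. The 2 groups, replicative and other polymerases, were not compared by a test.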

How the data were processed

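RNA sequencing libraries of vector and ATOH8 A549 cells, 1 each, were compared. The FPKM values per gene were used as the authors deposited them; per the submitters' processing notes, CASAVA, HISAT2 and Cufflinks 2.2.1 were used with hg38 (GRCh38). For the annotation release and read numbers, the sources used here give nothing. The p-value and q-value of each gene in the authors' deposited table come from a comparison of the 2 libraries by a test that the file does not name; 2 FPKM columns of that table, whose names match no sample, were not used.

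Genes were joined by identifier, and those with a mean of at least 1 FPKM were kept. Log2 folds used a pseudocount of 1 FPKM. They were centred on the median of genes with a mean of at least 5 FPKM, or corrected by lowess (fraction 0.3, statsmodels 0.14.6) on the GC content of the longest GENCODE 29 transcript, which 99.7% of kept genes had. With 1 library per group no test was run, and a 2-fold limit was used. The calculation was tested on simulated data. Python 3.11.15 and pandas 2.3.3 were used.

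The members and lists were chosen with earlier results of these data known. Not every marker gene is reported here. Named genes were every member and, of each other list, the 3 with the largest absolute fold. Promoter letters came from RefSeq windows on GRCh38.p14. Alternatives covered the pseudocount, filter, centring, scaling, GC content, shared symbols and overlapping loci.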

Additional observations from a re-analysis of the deposited data

How the results depend on the processing

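No paired analysis was possible because each group holds 1 library, and for the same reason no library could be left out. No member's fold reversed its direction past the 2-fold limit under any alternative run. The count of members at least 2-fold lower was 27; it was 15 with a pseudocount of 5 FPKM, 43 on the FPKM as deposited and 43 on the TPM scale without centring. With a pseudocount of 5 FPKM the count on the FPKM as deposited was 26 in place of 43, and 2 in place of 9 groups had a median past the limit; a larger pseudocount shrinks the folds of low genes by construction. Leaving out the 26 members whose locus string spans another gene left 25 members, of which 14 were at least 2-fold lower and 0 higher, and 21 were lower on the FPKM as deposited; POLD4 was among those left out. With mitochondrial transcripts left out and no centring, 37 members were at least 2-fold lower, in place of 43 on the FPKM as deposited. The median of the members was then -1.20, and 10 groups had a median past the limit. The median of the members stayed within 1.5-fold of its value in 11 of 11 alternatives. The comparison of pair differences with and without GC correction was added after seeing the data. Depth is unknown, so how far counting error limits the lowest genes, such as WDHD1 and DSCC1, was not tested.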
